A study of Mus musculus with 7 samples.

Results

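The Notch pathway genes described here are 39 mouse genes of Notch signalling, taken from a fixed list of receptors, ligands, modifiers, proteases, nuclear partners and target genes. A gene entered through a probe set whose only symbol was that gene, and where several existed, through the set with the highest mean over the 7 arrays. All 39 were measured, among 19938 genes on the array. RNA came from fluorescent cells sorted from the cerebral cortex of C57BL/6 mice at embryonic day 14 (E14). Cortices had been electroporated at E13 with DNA that also encoded green fluorescent protein (GFP), and GFP-positive cells were isolated 24 h later. The Trnp1 knockdown group had 3 arrays and the control group, labelled WT for genotype, had 4, all called biological replicates. The labels name neither the knockdown sequence nor the control construct, give no sex, and do not say how many embryos a sample holds, so p-values measure the spread between these samples.

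Notch receptors are single-pass membrane proteins that are cleaved when a Delta or Jagged ligand on a neighbouring cell binds them. The released intracellular domain joins the DNA-binding protein Rbpj and a Mastermind coactivator and switches on genes of the Hes and Hey families, which repress proneural genes. In the embryonic cortex this signalling keeps radial glia, the apical stem cells, undifferentiated, while differentiating cells present the ligands. Levels below are RMA values on the log2 scale, each set against the same probe set on other arrays only, and differences are knockdown minus control, so a positive one means a higher signal after knockdown.

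Trnp1, which encodes a nuclear protein of cortical progenitors, was lower in every knockdown array. Its level was 4.80, 4.85 and 4.55 in the knockdown arrays, against 5.07, 4.999, 5.24 and 5.22 in the control arrays. The difference was -0.40 (SE 0.12), with p = 0.0286 by the exact two-sided permutation test, the smallest p that the 35 splits of the arrays allow. Of the cortical markers, Emx1, Emx2, Pax6 and Lhx2 had mean levels between the 73.9th and the 98.9th percentile of genes. Of these, 3 of 4 were lower in knockdown, with -0.36 (SE 0.12) for Emx1, whose groups did not overlap, and -0.43 (SE 0.20) for Lhx2.

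Sorted samples are mixtures, and markers of other cell types differed between arrays. The 9 endothelial markers, the genes of vessel lining cells, had a median level of 7.13, 5.98 and 5.29 in knockdown replicates 1, 2 and 3, against 4.48, 4.63, 4.22 and 6.49 in control replicates 1 to 4. Knockdown replicate 1 and control replicate 4 thus had the highest vessel signal of their groups, and 9 of the 9 markers had a higher mean in knockdown. Of the 7 mural markers, of the cells that wrap vessels, 5 of 7 were higher. Their median deviation from the control mean of each gene was 1.29, 0.44 and -0.03 in knockdown replicates 1, 2 and 3. In control replicates 1 to 4 it was -0.13, -0.30, -0.16 and 0.50. The 5 markers of inhibitory neurons, which arise outside the dorsal cortex, had a median of 5.38, 8.48 and 4.71 in the knockdown arrays and between 4.07 and 4.76 in the control arrays. All 5 of 5 had a higher mean in knockdown, and Dlx5 (2.14, SE 0.69) and Gad2 (1.07, SE 0.40) were higher in every knockdown array than in every control array. The 5 microglial markers had medians between 4.97 and 6.58 in knockdown and between 4.73 and 6.57 in control arrays, with 5 of 5 higher. Radial glia markers deviated from their control means by a median of 0.07, 0.21 and -0.23 in knockdown replicates 1, 2 and 3. In control arrays that median lay between -0.30 and 0.31, and 4 of 7 markers were higher in knockdown. Prom1 went the other way (-0.47, SE 0.17) and was lower in every knockdown array than in every control array. Neuron markers deviated by a median of -0.51, -0.29 and -0.27 in the knockdown arrays and between -0.21 and 0.13 in control arrays, with 4 of 6 lower. Among them Dcx (-0.52, SE 0.19), Neurod2 (-0.59, SE 0.16) and Neurod6 (-0.71, SE 0.13) were each lower in every knockdown array than in every control array. Tubb3 (-0.50, SE 0.28) was lower with overlapping groups. Map2 (0.11, SE 0.24) and Stmn2 (0.33, SE 0.37) were higher, also with overlapping groups. The part of these mixtures in the Notch values was not tested. In such bulk samples fewer cells of a type and less RNA per cell cannot be told apart.

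No Notch pathway gene passed the test over all genes. By limma with Benjamini-Hochberg adjustment, 0 of the 39 were past an adjusted p of 0.05, higher or lower. Over all genes the count was also 0 (0%), although 439 were higher and 719 lower at an unadjusted p under 0.05, and the members' adjusted p lay between 0.825 and 0.998. At an unadjusted p under 0.05, 3 members were higher in knockdown (Jag1, Jag2 and Mib2), which is 7.69% of the members where 2.20% of all genes were, and 3 were lower (Nrarp, Mfng and Dtx4), again 7.69% where 3.61% of all genes were. With array medians made equal, Jag1 and Mib2 were still higher and Nrarp, Mfng and Dtx4 still lower at that p. The shares of all genes were then 0.918% higher and 7.56% lower, the latter close to the 7.69% of members that were lower. These small counts moved with single arrays. Dropping knockdown replicate 2 gave 6 higher members, in a fit where 4.42% of all genes were. Dropping knockdown replicate 3 gave 5 higher (2.35% of all genes), and dropping control replicate 1 left 1 lower (3.39% of all genes). Leaving out both knockdown replicate 1 and control replicate 4 was chosen after seeing the data. That fit had 1 higher member (Dll4) and 1 lower (Hes1), where 2.71% of all genes were higher and 2.54% lower. In that fit Jag1, Mib2 and Nrarp had unadjusted p of 0.0562, 0.0695 and 0.0656 by limma. Over all alternatives run, an unadjusted p under 0.05 held in 15 of 16 for Jag1, in 12 of 16 for Mib2 and for Nrarp, in 9 of 16 for Dtx4, in 7 of 16 for Mfng and in 7 of 15 for Jag2.

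The 39 genes did not shift together. Their differences ranged from -0.56 to 0.80 with a median of -0.03, against a median of -0.001 over all genes, and 22 members (56.4%) were lower in knockdown where 50.2% of all genes were. The groups did not overlap for 1 higher member (2.56%, against 2.59% of all genes) and for 2 lower members (5.13%, against 3.07%). Only Hes3 had a mean level under the 25th percentile of genes, where RMA signals are least informative. By role, ligands had a median difference of 0.35 and receptors of 0.26, proteases of -0.22 and target genes of -0.24. These medians describe lists of 4 to 8 genes and carry no test.

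**Figure D1:**
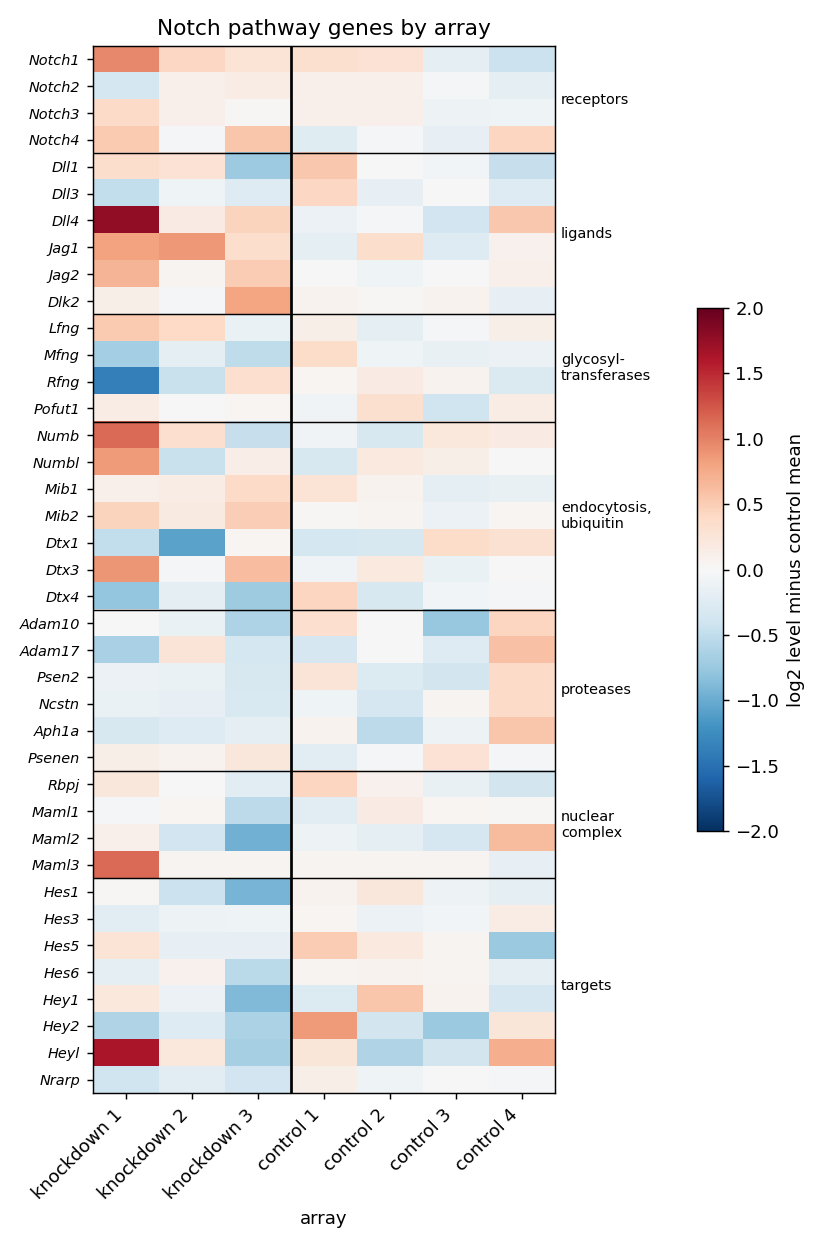
Heat map of the 39 Notch pathway genes (rows, grouped by role) on the 7 arrays (columns, knockdown left of the line, control right), with colour giving the log2 level minus the control mean of that gene. Dll4 and Heyl were highest in knockdown replicate 1, Hes1 and Hey1 lowest in knockdown replicate 3, and the 8 target genes had a median of -0.58 in that array.

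Among the ligands, the Jagged genes had the clearest higher signals after knockdown. Jag1 (Entrez 16449), a ligand of neural progenitors and of vessels, had 5.83, 5.90 and 5.39 in knockdown arrays, against 4.84, 5.39, 4.79 and 5.12 in control arrays. Knockdown replicate 3 and control replicate 2 shared exactly the value 5.39, and all other knockdown values were above all control values. The difference was 0.67 (SE 0.20, 95% interval 0.21 to 1.13), a 1.59-fold higher signal, with an unadjusted p of 0.0102 and an adjusted p of 0.825 by limma. It was the smallest unadjusted p of the 39 genes and the 208th of all genes. Leaving out each array in turn kept it between 0.58 and 0.83, and leaving out knockdown replicate 1 and control replicate 4 together gave 0.64 (SE 0.26).

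Jag2 (Entrez 16450), the other Jagged ligand, had 4.95, 4.33 and 4.78 in knockdown arrays, against 4.28, 4.19, 4.26 and 4.37 in control arrays. The knockdown arrays were spread out and replicate 2 lay within the control range, while the 4 control arrays lay close together. The difference was 0.42 (SE 0.16, unadjusted p = 0.0331 and adjusted p = 0.825 by limma), or 0.28 without knockdown replicate 1. The unadjusted p by limma was above 0.05 in 5 of 7 fits with 1 array dropped, and was 0.0794 with equal array medians and 0.0701 after renormalization by quantiles.

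Dll4 (Entrez 54485), a Delta ligand known above all from sprouting vessels, had the largest difference of the members, 0.80 (SE 0.40, 95% interval -0.14 to 1.74). Its values were 6.55, 4.95 and 5.23 in knockdown arrays, against 4.66, 4.75, 4.39 and 5.31 in control arrays. The top value of each group was that of knockdown replicate 1 and control replicate 4, which were also the arrays with the most endothelial signal. Without knockdown replicate 1 the difference was 0.31, and without both of these arrays it was 0.49 (SE 0.17). How far vessel cells account for the difference was not tested.

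The Delta ligands of cortical neurogenesis did not show this pattern. Dll1 (Entrez 13388), which newborn neurons and committed progenitors present to radial glia, had 6.96, 6.90 and 5.88 in knockdown arrays, against 7.14, 6.61, 6.55 and 6.14 in control arrays. The groups overlapped widely, with knockdown replicate 3 the lowest of the 7 arrays, and the difference was -0.03 (SE 0.33), changing sign to 0.03 after cyclic loess normalization and to 0.32 without knockdown replicate 3. Dll3 (Entrez 13389), which acts within its own cell and does not activate receptors on neighbours, had 5.72, 6.12 and 5.95 in knockdown arrays, against 6.62, 6.05, 6.22 and 5.95 in control arrays. Control replicate 1 alone stood well above the rest, and the difference of -0.28 (SE 0.19) was -0.14 without it. Dlk2, a Delta-like protein that lacks the usual receptor-binding domain, had a difference of 0.29 (SE 0.20), which was 0.04 when knockdown replicate 3 was dropped.

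**Figure D2:**
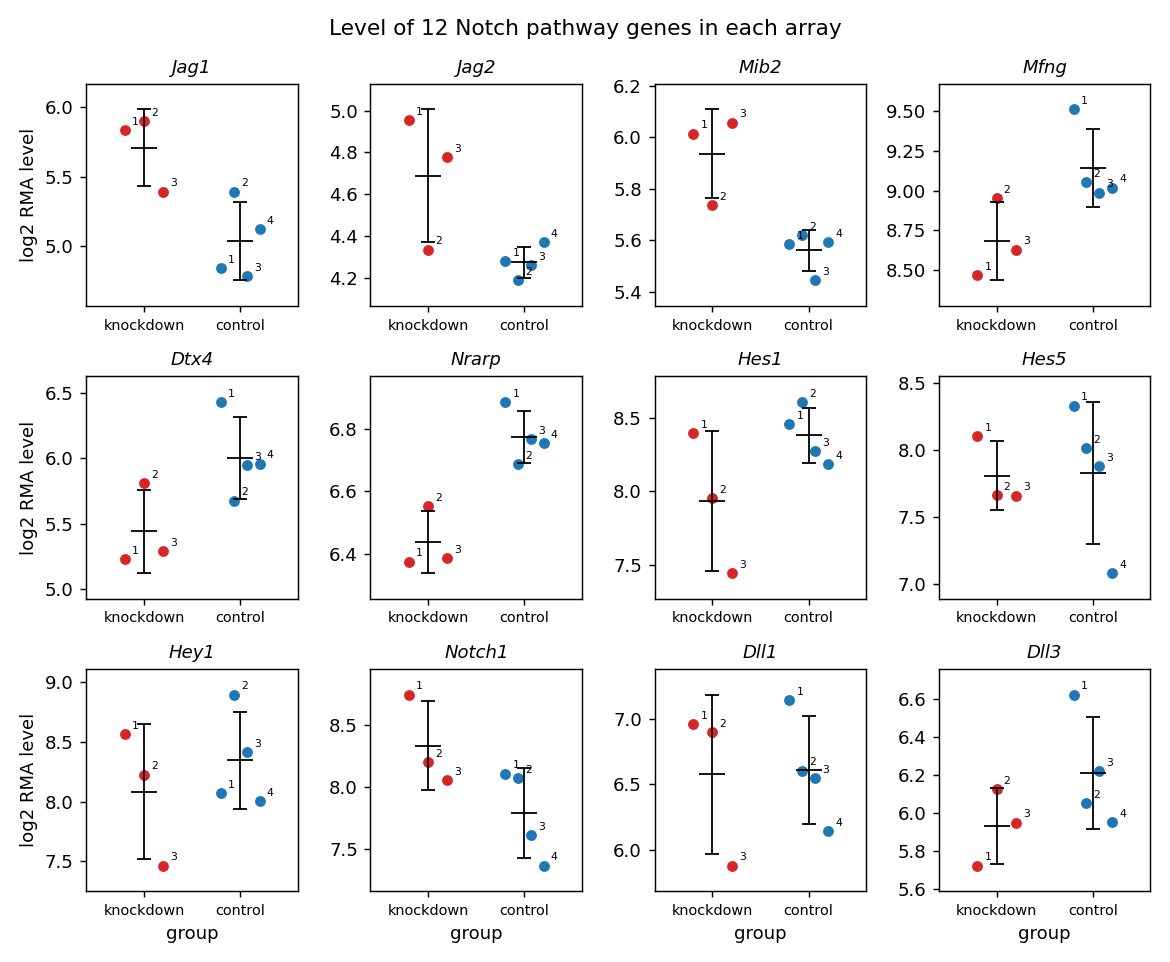
Log2 RMA level (y axis, own scale per panel) of 12 Notch pathway genes in each knockdown (red) and control (blue) array, with replicate numbers beside the points and mean and SD in black. Only for Mib2, Mfng and Nrarp did all knockdown points lie on one side of all control points, while Jag1 met at the shared value of 5.39.

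Of the 4 receptors, Notch1 came nearest to a separation. Notch1 (Entrez 18128), the main receptor of radial glia and also an endothelial receptor, had 8.75, 8.20 and 8.06 in knockdown arrays, against 8.11, 8.07, 7.61 and 7.36 in control arrays. Only knockdown replicate 3 lay inside the control range. The difference was 0.55 (SE 0.24, 95% interval -0.03 to 1.12, unadjusted p = 0.0586 and adjusted p = 0.825 by limma), and dropping knockdown replicate 1 gave 0.34. With control replicate 4 dropped as well, 0.20 remained. Knockdown replicate 1, with the most endothelial signal, had the highest Notch1 value, and control replicate 4, with the most among controls, had the lowest. The part of vessel cells in the Notch1 difference was not tested.

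Notch2 (Entrez 18129), a second receptor of neural progenitors, had 6.64, 7.10 and 7.14 in knockdown arrays, against 7.10, 7.10, 6.95 and 6.82 in control arrays. Its difference was -0.03 (SE 0.16), changing sign to 0.03 when arrays were renormalized by quantiles and to 0.06 by cyclic loess. Notch3 (Entrez 18131), which marks mural cells and also occurs in progenitors, had 6.02, 5.74 and 5.66 in knockdown arrays, against 5.74, 5.74, 5.54 and 5.56 in control arrays. Its difference of 0.16 (SE 0.13) was 0.06 when knockdown replicate 1 was dropped. Notch4 (Entrez 18132), the endothelial receptor, had 5.21, 4.65 and 5.23 in knockdown arrays, against 4.44, 4.65, 4.51 and 5.10 in control arrays. The value of 5.10 belonged to control replicate 4, and the difference was 0.35 (SE 0.21).

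**Figure D3:**
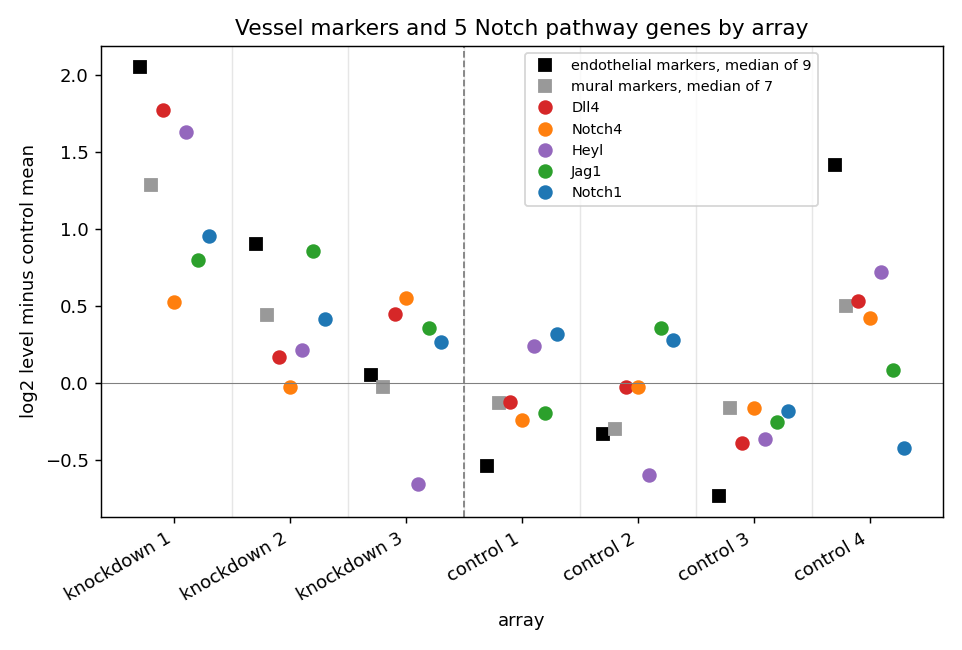
Log2 level minus control mean (y axis) on the 7 arrays (x axis, knockdown left of the dashed line) of the endothelial and mural marker lists (squares, median of 9 and of 7 genes) and of Dll4, Notch4, Heyl, Jag1 and Notch1 (circles). The endothelial median was 2.05 in knockdown replicate 1 and 1.42 in control replicate 4, the arrays in which Dll4 and Heyl peaked within their groups.

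Fringe enzymes lengthen sugars on the receptor, and Lfng and Mfng favour its activation by Delta over Jagged ligands, after Pofut1 has placed the first sugar. Mfng (Entrez 17305, manic fringe) had 8.47, 8.95 and 8.63 in knockdown arrays, against 9.51, 9.05, 8.99 and 9.02 in control arrays. Each knockdown value was under each control value, though knockdown replicate 2 and control replicate 3 nearly met. The difference was -0.46 (SE 0.18, unadjusted p = 0.0353 and adjusted p = 0.825 by limma), a 1.38-fold lower signal, and it was -0.34 without control replicate 1, the array that stood above the other controls. The unadjusted p by limma was 0.0693 after renormalization by quantiles (-0.37), 0.101 after cyclic loess (-0.33), 0.0543 with the dimmer 50% of genes left out and 0.0787 with the replicate block, and it was above 0.05 in 4 of 7 fits with 1 array dropped. Lfng (Entrez 16848, lunatic fringe), the fringe of cortical progenitors, had 7.90, 7.78 and 7.25 in knockdown arrays, against 7.50, 7.19, 7.34 and 7.51 in control arrays. Its difference was 0.26 (SE 0.18), opposite in sign to that of Mfng, and dropping knockdown replicate 1 gave 0.14 where dropping knockdown replicate 3 gave 0.46. Rfng (radical fringe) ranged from 5.87 to 7.58 among the knockdown arrays alone, a spread wider than its difference of -0.49 (SE 0.37), which was -0.05 without knockdown replicate 1. Pofut1 differed by 0.07 (SE 0.18), and by -0.04 with equal array medians.

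Modifiers of ligand and receptor traffic went both ways. Mib2 (Entrez 76580), a ubiquitin ligase of the Mindbomb family that promotes ligand uptake, had 6.01, 5.74 and 6.06 in knockdown arrays, against 5.59, 5.62, 5.45 and 5.59 in control arrays. Every knockdown array exceeded every control array, and the difference was 0.38 (SE 0.12, unadjusted p = 0.0146 and adjusted p = 0.825 by limma), within 0.31 to 0.47 when each array was left out in turn. Its unadjusted p by limma was 0.0573 with a prior variance that follows intensity, 0.0502 with the dimmer 50% of genes left out and 0.0615 with the replicate block. The related Mib1 (Entrez 225164), the Mindbomb enzyme on which ligand activity in the cortex depends, had 7.54, 7.59 and 7.83 in knockdown arrays, against 7.71, 7.52, 7.24 and 7.30 in control arrays. These groups overlapped and the difference was 0.21 (SE 0.15).

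Deltex proteins are ubiquitin ligases that bind the intracellular part of the receptor. Dtx4 (Entrez 207521) had 5.23, 5.81 and 5.29 in knockdown arrays, against 6.43, 5.67, 5.95 and 5.96 in control arrays. Knockdown replicate 2 and control replicate 2 crossed, and the difference was -0.56 (SE 0.22, unadjusted p = 0.035 and adjusted p = 0.825 by limma). The unadjusted p was above 0.05 in 5 of 7 fits with 1 array dropped and 0.102 with the replicate block, by limma. Dtx1, itself a Notch target in other tissues, had a difference of -0.50 (SE 0.30), which was -0.22 when knockdown replicate 2 was dropped. Dtx3 lay on the other side with 0.49 (SE 0.22, unadjusted p = 0.0549), and with 0.30 without knockdown replicate 1.

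Numb and Numbl encode adaptor proteins that antagonise Notch in the receiving cell and are inherited by daughters of dividing progenitors. Numb (Entrez 18222) had 7.84, 7.05 and 6.24 in knockdown arrays, against 6.64, 6.38, 6.92 and 6.88 in control arrays. The knockdown arrays held both the highest and the lowest value, so the difference of 0.34 (SE 0.35) was within their spread, and it was -0.06 without knockdown replicate 1. Numbl (Entrez 18223) had 7.53, 6.23 and 6.82 in knockdown arrays, against 6.36, 6.87, 6.79 and 6.69 in control arrays. Here too the knockdown arrays enclosed all controls, with a difference of 0.18 (SE 0.30), or -0.16 without knockdown replicate 1.

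None of the 6 genes for receptor-cleaving proteases reached an unadjusted p under 0.05 by limma. Adam10 and Adam17, which make the first cut outside the membrane, each differed by -0.25 (SE 0.31 and 0.29). With 1 array left out, Adam10 lay between -0.50 (without control replicate 3) and -0.06 (without knockdown replicate 3), and Adam17 between -0.50 (without knockdown replicate 2) and -0.05 (without knockdown replicate 1). In the gamma-secretase complex, which makes the second cut inside the membrane, Psen2 differed by -0.19 (SE 0.21), Ncstn by -0.20 (SE 0.17), Aph1a by -0.26 (SE 0.23) and Psenen by 0.14 (SE 0.14). So 5 of 6 were lower, with unadjusted p of 0.282 or more, and control replicate 4 had the highest value of all arrays for Adam10, Adam17, Psen2, Ncstn and Aph1a. Without that array the differences of Psen2, Ncstn and Aph1a were -0.06, -0.08 and -0.08. Leaving out knockdown replicate 1 together with it turned Adam17 to 0.15.

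Nuclear partners of the receptor likewise gave no separation. Rbpj (Entrez 19664), the DNA-binding protein through which the signal acts, had 8.94, 8.71 and 8.48 in knockdown arrays, against 9.14, 8.80, 8.57 and 8.35 in control arrays. The knockdown values lay inside the control range, and the difference was -0.0038 (SE 0.21, 95% interval -0.49 to 0.48), turning to 0.11 with renormalization by quantiles and to 0.13 by cyclic loess. Among the Mastermind coactivators, Maml1 differed by -0.18 (SE 0.17) and Maml2 by -0.42 (SE 0.31). Dropping knockdown replicate 3 took them to 0.00025 and -0.14, and the other Maml2 probe set gave 0.001. Maml3 read 6.68 on 5 of the 7 arrays, with 7.76 in knockdown replicate 1 and 6.47 in control replicate 4, so its difference of 0.41 (SE 0.27) rested on knockdown replicate 1 and was 0.05 without it.

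**Figure D4:**
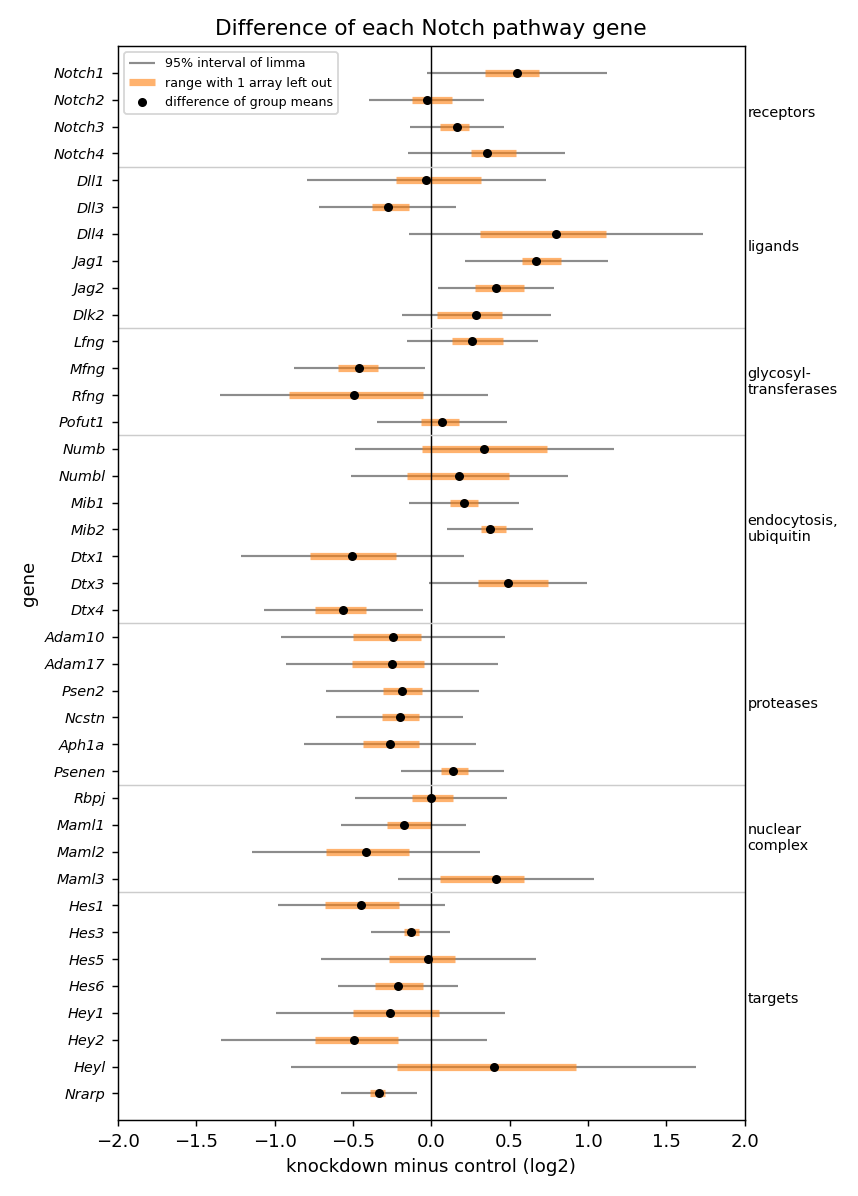
Difference of group means (black points, knockdown minus control, log2) for the 39 genes by role, with limma's 95% interval in grey and the range over fits with 1 array left out in orange. The intervals of Jag1, Jag2, Mib2, Mfng, Dtx4 and Nrarp exclude 0 before adjustment, and the orange bars of 10 genes cross 0.

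Of the 8 target genes, 7 had a lower mean in knockdown, among them the dim Hes3 and Hey2, and Hes5 with a difference far below its SE. Renormalizing by quantiles or cyclic loess left 6 lower, with Hes5 on the other side. Leaving out 1 array gave between 5 (without knockdown replicate 3) and 8 (without knockdown replicate 1). Rbpj recognises the core GTGGGAA, and a search of both strands over the 250 bases before the transcription start found it in 4 of the 31 members that have a promoter sequence in RefSeq's GRCm38.p6 annotation (12.9%), against 6.18% of 27025 genes. The members were Hes5, Hey2, Lfng and Psen2. Dtx3, Dtx4, Hes1, Hes3, Hey1, Heyl, Mfng and Mib1 were not searched, since the table of promoters used here has no entry for them. The first 3 are printed because they belong to the target and fringe genes described here, and Nrarp because its arrays separated. Of Hes5 only short stretches around each core are given, because its RefSeq gene record begins upstream of the start used. Sequences run 5′ to 3′ towards the start, with matches to the core or its reverse complement in capitals.
Hes5, distal core (chr4:154960687-154960713, plus strand): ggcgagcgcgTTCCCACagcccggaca
Hes5, proximal core (chr4:154960830-154960856, plus strand): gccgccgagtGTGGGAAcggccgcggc
Hey2 (chr10:30842784-30843033, minus strand): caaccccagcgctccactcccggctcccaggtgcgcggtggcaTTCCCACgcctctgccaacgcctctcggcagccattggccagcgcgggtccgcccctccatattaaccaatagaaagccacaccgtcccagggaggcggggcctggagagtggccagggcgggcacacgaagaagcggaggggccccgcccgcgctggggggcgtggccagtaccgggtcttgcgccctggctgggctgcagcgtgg
Lfng (chr5:140607091-140607340, plus strand): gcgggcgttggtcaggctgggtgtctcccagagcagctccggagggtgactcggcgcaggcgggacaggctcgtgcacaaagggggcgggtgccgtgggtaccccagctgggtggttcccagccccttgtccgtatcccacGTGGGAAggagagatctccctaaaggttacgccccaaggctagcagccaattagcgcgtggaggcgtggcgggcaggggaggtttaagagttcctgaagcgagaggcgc
Nrarp (chr2:25180508-25180757, plus strand): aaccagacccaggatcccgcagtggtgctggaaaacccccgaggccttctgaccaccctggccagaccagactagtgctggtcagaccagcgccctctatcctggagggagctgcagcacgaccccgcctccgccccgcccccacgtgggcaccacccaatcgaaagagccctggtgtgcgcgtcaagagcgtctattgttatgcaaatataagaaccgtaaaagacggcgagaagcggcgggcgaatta

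Hes5 held a pair of cores, from 226 to 220 bases before the start on the reverse strand and from 83 to 77 bases before it on the forward strand. Lfng held one from 109 to 103 bases before its start, and Hey2 held one from 207 to 201 bases before its start on the reverse strand. The Nrarp window held none, which says only that these letters are not in this window. Hes and Hey factors bind CACNAG and CACGNG, motifs that overlap where the sequence is CACGAG. The motif CACNAG occurred in 41.9% of the members with a promoter, against 40.1% of all genes, and CACGNG in 48.4%, against 26.1%. By the start richest in G and C of each gene, member promoters had a median of 65.6% G and C over those 31 genes. Over all genes it was 52.8%. The part of base composition in these shares was not tested.

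Nrarp (Entrez 67122) encodes an ankyrin-repeat protein that Notch induces and that destabilises the receptor's intracellular domain, a negative feedback. It had 6.38, 6.55 and 6.39 in knockdown arrays, against 6.88, 6.69, 6.77 and 6.75 in control arrays. Each knockdown value was under each control value and both groups were tight, at 6.44 ± 0.0992 (SD, n = 3) in knockdown and 6.77 ± 0.0824 (SD, n = 4) in control. The difference was -0.33 (SE 0.10, 95% interval -0.58 to -0.09), a 1.26-fold lower signal, with an unadjusted p of 0.014 and an adjusted p of 0.825 by limma. It lay between -0.39 and -0.30 when each array was left out in turn, and was -0.31 (SE 0.13) without knockdown replicate 1 and control replicate 4. The unadjusted p by limma was 0.0815 with a prior variance that follows intensity, 0.0631 with the dimmer 50% of genes left out and 0.0692 with the replicate number as a block.

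Hes1 (Entrez 15205), the oscillating repressor that holds back proneural genes in radial glia, had 8.40, 7.96 and 7.45 in knockdown arrays, against 8.45, 8.61, 8.27 and 8.18 in control arrays. Knockdown replicates 2 and 3 lay below all controls and replicate 1 among them. The difference was -0.45 (SE 0.23, 95% interval -0.98 to 0.09, unadjusted p = 0.0889 and adjusted p = 0.825 by limma). Dropping knockdown replicate 3 gave -0.20 and dropping knockdown replicate 1 gave -0.68. With control replicate 4 dropped beside knockdown replicate 1, a fit chosen after seeing the data, it was -0.74 (SE 0.20, unadjusted p = 0.0136 and adjusted p = 0.875 by limma).

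Hes5 (Entrez 15208), the Hes gene most tightly tied to Notch in the developing brain and the one with 2 Rbpj cores above, had 8.10, 7.66 and 7.66 in knockdown arrays, against 8.33, 8.02, 7.88 and 7.08 in control arrays. The 4 control arrays enclosed all 3 knockdown arrays, with control replicate 4 lowest. Its difference was -0.02 (SE 0.29, 95% interval -0.70 to 0.67), turning to 0.07 with renormalization by quantiles and to 0.11 by cyclic loess. Leaving out 1 array moved it between -0.27 (control replicate 4 dropped) and 0.15 (control replicate 1 dropped). The fit without knockdown replicate 1 and control replicate 4, chosen after seeing the data, gave -0.42 (SE 0.17, unadjusted p = 0.058 and adjusted p = 0.875 by limma).

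The Hey genes encode repressors related to Hes that also serve vessels. Hey1 (Entrez 15213) had 8.56, 8.22 and 7.46 in knockdown arrays, against 8.07, 8.89, 8.41 and 8.001 in control arrays. Knockdown replicate 3 was the lowest array and the others overlapped, so the difference of -0.26 (SE 0.31) became 0.05 without it. Hey2 (Entrez 15214), with 1 Rbpj core above, had 3.32, 3.65 and 3.29 in knockdown arrays, against 4.77, 3.54, 3.17 and 4.16 in control arrays. Its mean level was at the 28.2nd percentile of genes, control replicates 1 and 4 stood above the rest, and the difference was -0.50 (SE 0.36), or -0.21 without control replicate 1. Heyl (Entrez 56198), known from mural cells, had 6.86, 5.44 and 4.57 in knockdown arrays, against 5.47, 4.63, 4.87 and 5.95 in control arrays. The knockdown arrays enclosed all controls, and the difference of 0.40 (SE 0.55) was -0.22 without knockdown replicate 1, the array with the most vessel signal.

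The remaining Hes genes had small differences. Hes6 (Entrez 55927), which in mouse opposes Hes1 and marks cells on their way to neurons, had 6.77, 7.04 and 6.43 in knockdown arrays, against 7.02, 7.02, 7.02 and 6.78 in control arrays. Its difference of -0.21 (SE 0.16) was -0.05 when knockdown replicate 3 was dropped. Hes3 (Entrez 15207), a repressor of earlier neural progenitors, had 3.32, 3.43 and 3.44 in knockdown arrays, against 3.56, 3.40, 3.46 and 3.67 in control arrays. Its signal was at the 21.4th percentile of genes and the difference was -0.13 (SE 0.11).

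Over the 8 targets, the median deviation from the control mean was -0.09, -0.14 and -0.58 in knockdown replicates 1, 2 and 3. The 6 ligands had medians of 0.51, 0.11 and 0.40 in the same arrays, and between -0.04 and 0.04 in the control arrays. The control deviations of each gene average 0 by construction, here and in the marker lists, so control medians near 0 are partly built in. Genes of hypoxia and glycolysis, 10 of 10 higher in knockdown, deviated by 1.56, 0.17 and 1.02 in knockdown replicates 1, 2 and 3. Their median levels ran from 7.13 to 8.65 in knockdown and from 6.77 to 7.33 in control arrays. Genes of G2 and M phase, 12 of 12 lower, deviated by -1.21, 0.07 and -0.75, with median levels from 7.56 to 8.71 in knockdown and from 8.23 to 9.15 in control arrays. The part of these programmes in the Notch values was not tested.

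Proneural genes, the classical targets of Hes repression, stayed near 0, with 0.02 (SE 0.31) for Neurog2 and 0.13 (SE 0.53) for Neurog1. Neurog1 was spread from 6.30 to 8.67 within the knockdown arrays. Beyond the 39 members, 39 of 42 further genes of the pathway were measured and the rest were not analysed here. By limma 0 of them passed over all genes, 16 were higher and 23 lower, and their median was -0.04. At an unadjusted p under 0.05, 0 were higher (where 2.20% of all genes were) and 2 were lower (where 3.61% were). These were Itch, a ubiquitin ligase of the receptor, with -0.43 (SE 0.15), and Ankrd6, better known from Wnt signalling, with -0.60 (SE 0.25).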

How the data were processed

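Total RNA was amplified, biotin-labelled and hybridised to 1 Affymetrix gene array per sample, per the labels' protocols. The authors deposited log2 values of 35556 probe sets per the submitters' processing notes, which name RMA and Affymetrix Expression Console 1.2. The method corrects background, normalizes arrays by quantiles and summarises probes, which compresses differences of dim sets. Scanner values were not used here. Array medians lay between 4.40 and 4.61, and any pair of arrays correlated at 0.937 to 0.976. No array was a copy of another. Arrays have no count depth, so their number limits the precision.

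Of the probe sets, 21789 had 1 gene symbol, 1621 several and 12146 none, in GEO's platform annotation. Symbols were updated by Entrez number through RefSeq of GRCm38.p6, where 21698 matched. The probe set with the highest mean stood for each of 19938 genes, 4 of the 39 members having more than 1.

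The comparison used limma 3.58.1 under R 4.3.3 (lmFit and eBayes, two-sided, 5 residual and 2.36 prior degrees of freedom), adjusted by Benjamini-Hochberg over all genes at 0.05. Simulated data, 5 runs over 19938 genes, had normal noise drawn independently for each gene and 200 altered genes per run. The fit called 48.6% of altered genes at a size of 1 log2 unit and 87% at a size of 2. Each run made 6.6 false calls on average. Differences shared by many genes of an array, such as vessel signal, were not simulated. The members' differences, at most 0.80, were smaller than either size, so these rates do not give the power for them. Members, lists, motifs and alternatives were chosen with earlier results of these data known. All members could be named, with values in every array for the canonical ones and for those with an unadjusted p under 0.05.

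Same-numbered knockdown and control arrays did not deviate together (correlations 0.03, -0.05 and 0.07 over genes), and the labels do not tie them, so no block was used.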

Additional observations from a re-analysis of the deposited data

Results flagged for a closer look

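Among the control arrays of the 39 members and Trnp1, 3 of 40 groups of 4 held a value far from the others by Dixon's criterion, where chance flags about 1 in 20, or 2 of 40. Mfng was 9.512 in control replicate 1, against 8.988 to 9.054 in the other controls. Maml3 was 6.47 in control replicate 4, against 6.684 in each of the other controls. Because those controls were tied, any different value would have been flagged, and the rate of 1 in 20 does not cover such ties. Hes6 was 6.779 in control replicate 4, against 7.018 to 7.023 in the others.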

How the results depend on the processing

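Of 620 recalculated member differences, 588 kept their direction, 1 was exactly 0 (Maml3 without knockdown replicate 1 and control replicate 4), and 0 passed an adjusted p of 0.05. Without 1 array, 10 of 39 members changed sign: Dll1 ranged from -0.22 to 0.32, Hes5 from -0.27 to 0.15, Hey1 from -0.50 to 0.049, Heyl from -0.22 to 0.92, Maml1 from -0.28 to 0.00025, Notch2 from -0.12 to 0.13, Numb from -0.061 to 0.74, Numbl from -0.16 to 0.49, Pofut1 from -0.065 to 0.18 and Rbpj from -0.12 to 0.14. Renormalization by quantiles turned Hes5 to 0.071, Notch2 to 0.029 and Rbpj to 0.11, and cyclic loess turned Dll1 to 0.031, Hes5 to 0.11, Notch2 to 0.060 and Rbpj to 0.13. Equal array medians turned Pofut1 to -0.038, and the mean over probe sets turned Rbpj to 0.0086. Leaving out knockdown replicate 1 and control replicate 4 together, an alternative chosen after seeing the data, turned Adam17 to 0.15, Notch2 to 0.073, Numb to -0.0038 and Numbl to -0.15. The causes were not tested. Members at an unadjusted p under 0.05 numbered 5 higher and 2 lower after cyclic loess (2.42% and 2.91% of all genes). With the dimmer 50% of genes left out, 35 members remained. Of these 1 was higher and 1 lower, where 1.83% and 4.79% of 9968 genes were. Without knockdown replicate 1 and control replicate 4, 1 was higher and 1 lower (2.71% and 2.54% of all genes). With 1 array left out, such members ranged from 2 to 6 higher and from 1 to 3 lower. The shares of all genes in those fits ranged from 1.51% to 4.42% higher and from 2.35% to 7.63% lower. With the replicate block, 3 were higher and 0 lower, where 644 genes (3.23%) were higher and 842 (4.22%) lower, and the numbers were not shown to pair the arrays. Over all genes, counts at that p were 439 higher and 719 lower, against 183 and 1507 with equal array medians, which moved the median of all genes to -0.11 and of members to -0.14. They were 182 and 477 of 9968 genes without those dimmer genes, and 301 to 882 higher and 469 to 1522 lower with 1 array left out. The number of arrays limits precision, and dim probe sets such as Hes3 and Hey2 lie near background.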
